A study of Homo sapiens with 19 samples.

Results

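A set of 10 genes stood higher in HepG2 cells with every siRNA against YAP or TAZ than in cells with the control siRNA. They are DRAM1, VPS4B, CFDP1, DSC2, ZNF678, SMIM15, RYK, IDE, FCHO2 and TRAPPC6B, 10 of the 25579 genes measured, each by 1 probe set. The list was chosen by measured values, namely expression above control in all 6 siRNA groups with no further change when siRNAs were combined. Their differences from control, and those between combined and single knockdown, are therefore given as descriptions without a test. In the fit used here 19 of 25579 genes, 0.0743%, were higher than control in all 6 groups (limma adjusted p under 0.05 in each), and all 10 were among them. In the comparisons of combined with TAZ and with YAP knockdown, 0.747% and 2.24% of all genes passed. Of the 19 genes, 15 passed in neither, among them 9 of the 10. DRAM1 was the exception, with a log2 difference of -0.27 between combined and YAP knockdown.

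HepG2 is an established human liver cancer line. Cells were transfected with small interfering RNAs (siRNAs), double-stranded oligonucleotides that lead to the cleavage of mRNAs they match, and RNA was taken 24 h later for 19 Affymetrix arrays, 1 per sample. Both siRNAs against TAZ, encoded by WWTR1, were combined with 1 of the siRNAs against YAP, encoded by YAP1. The groups were siTAZ2_siYAP1 (n = 3) and siTAZ3_siYAP2 (n = 2) for combined knockdown, siTAZ2 (n = 3) and siTAZ3 (n = 2) for TAZ, siYAP1 (n = 3) and siYAP2 (n = 3) for YAP, and a nonsense siRNA as control (n = 3). Single siRNAs were used at 20 nM and, by the series' design text, combinations at 40 nM in total, while the control can be read as 20 or 40 nM. All 7 groups were transfected, and all 6 comparisons with control use the same 3 control arrays, so a difference carried by the siRNAs and one carried by the control arrays cannot be told apart. The design text lists control and YAP samples, but not TAZ or combined samples, as part of a second deposit too, so siRNA target and deposit cannot be told apart where these are compared. Nothing in the labels says whether replicates were separate cultures, and p-values then measure only the spread between these arrays.

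Values are log2 RMA values, normalized together by the authors, with an array median of 4.83. They are compared between groups for 1 gene and not between genes. YAP1 averaged 7.53 and 7.74 in siTAZ2_siYAP1 and siTAZ3_siYAP2 cells and 7.11 and 7.13 in siYAP1 and siYAP2 cells, against 9.84 in control. WWTR1 averaged 7.20 and 6.29 in the same combined groups and 6.97 and 6.47 in siTAZ2 and siTAZ3 cells, against 9.54 in control. All 10 measured hepatocyte markers lay above the array median, as did 1 of 6 stromal, 1 of 5 leukocyte (LYZ) and 0 of 5 endothelial markers. The array labelled siTAZ2 replicate 3 stood apart, with a median correlation of 0.9866 with the other arrays, against at least 0.9927 for the rest. Bulk values cannot tell a change in every cell from a change in the share of cells that express a gene.

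YAP and TAZ are co-activators that the Hippo kinase cascade keeps out of the nucleus. In the nucleus they bind TEAD factors and switch on genes for growth and the cytoskeleton, in liver among other tissues. The 10 genes are not textbook targets of this pathway and work in different parts of the cell. VPS4B, FCHO2, TRAPPC6B and DRAM1 act in membrane traffic and autophagy, DSC2 and RYK at the cell surface, IDE in peptide breakdown, and CFDP1 and ZNF678 in the nucleus, while SMIM15 is a small membrane protein of little-known function.

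Promoter sequence was taken from RefSeq (GRCh38.p14), as windows of 250 bases before to 50 after an annotated gene start, and all 10 genes matched, with 13 windows. The windows of FCHO2, ZNF678 and DRAM1 are shown because they are the only one with a TEAD core, the only one with a repeated CCAAT box, and that of the gene with the widest differences between siRNA groups. Capitals mark GGAATG on either strand (the TEAD core) and CCAAT. FCHO2 is at chr5:72955791-72956090 on the plus strand, ZNF678 at chr1:227563306-227563605 on the plus strand and DRAM1 at chr12:101877330-101877629 on the plus strand.

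FCHO2: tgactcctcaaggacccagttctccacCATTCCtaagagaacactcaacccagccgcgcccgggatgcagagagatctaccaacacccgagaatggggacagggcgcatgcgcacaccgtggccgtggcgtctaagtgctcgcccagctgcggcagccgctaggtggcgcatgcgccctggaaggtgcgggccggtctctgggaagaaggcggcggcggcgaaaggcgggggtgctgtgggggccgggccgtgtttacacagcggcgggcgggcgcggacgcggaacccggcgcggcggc
ZNF678: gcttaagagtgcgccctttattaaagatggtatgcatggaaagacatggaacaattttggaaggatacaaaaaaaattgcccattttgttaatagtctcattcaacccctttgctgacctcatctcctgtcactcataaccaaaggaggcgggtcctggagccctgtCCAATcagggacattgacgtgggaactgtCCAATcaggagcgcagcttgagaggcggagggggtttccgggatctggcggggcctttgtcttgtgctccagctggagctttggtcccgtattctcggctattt
DRAM1: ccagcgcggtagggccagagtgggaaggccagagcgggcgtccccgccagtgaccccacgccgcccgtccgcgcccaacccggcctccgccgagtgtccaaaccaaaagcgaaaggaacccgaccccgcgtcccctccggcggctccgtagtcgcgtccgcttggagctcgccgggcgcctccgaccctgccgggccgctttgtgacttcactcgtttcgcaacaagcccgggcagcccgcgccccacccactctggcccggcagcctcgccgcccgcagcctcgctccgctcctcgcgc

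The TEAD core GGAATG was found, as its complement CATTCC, at -223 of FCHO2 and in none of the other 12 windows, and 14% of all 35116 promoter windows hold it. CCAAT stood at -83 and -54 of ZNF678 and once each in windows of IDE and VPS4B, so in 3 of 13 windows, against 34.6% of all. The AP-1 motif TGANTCA (7.71% of all windows), the E-box CACGTG (7.26%) and the TATA box TATAAA (11.5%) were in 0 of the 13 windows. Both strands were searched, and no 2 of these motifs overlapped in the windows shown. The median GC content was 66% in the 13 windows and 58.7% in all windows, and the median number of CpG dinucleotides was 24, against 14 in all windows. A match is only a run of letters, and its absence says nothing about the factor.

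Every one of the 16 siRNA arrays read above every one of the 3 control arrays for each of the 10 genes. The rule selects for this, and 0.641% of all genes showed it. The median over the 10 genes of the mean difference from control was 0.86 on the log2 scale. CFDP1, ZNF678 and VPS4B had the largest estimates, within 1 SE of each other, and IDE and TRAPPC6B the smallest. The gap between the lowest siRNA array and the highest control array ran from 0.12 for TRAPPC6B to 0.74 for VPS4B and CFDP1.

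**Figure D1:**
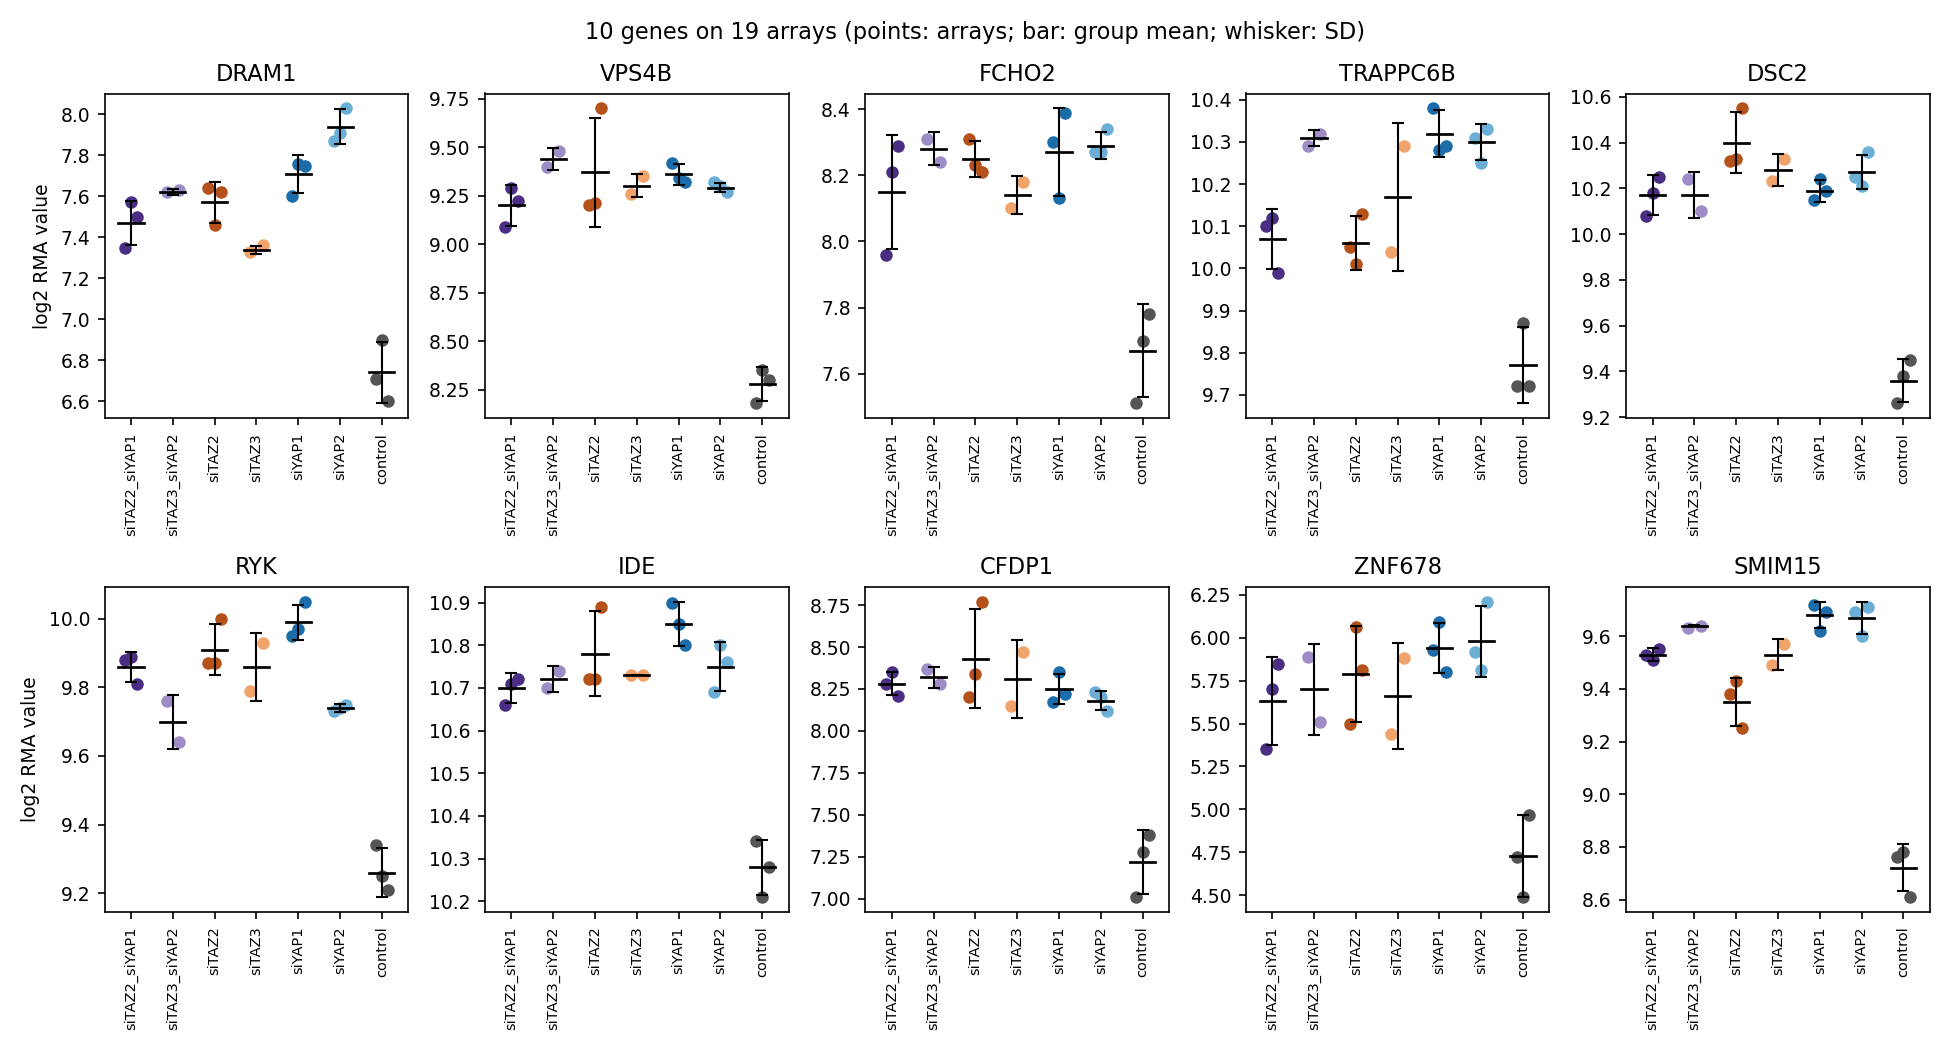
Log2 RMA values of the 10 genes on the 19 arrays. Points are arrays, bars group means and whiskers SDs. In each panel all siRNA arrays lie above the 3 control arrays on the right, by 0.12 (TRAPPC6B) to 0.74 (VPS4B, CFDP1).

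VPS4B is an ATPase that takes apart ESCRT-III filaments, the polymers that pinch membranes off into endosomes and at the end of cell division. It read 9.09, 9.29 and 9.22 in siTAZ2_siYAP1, 9.40 and 9.48 in siTAZ3_siYAP2, 9.20, 9.21 and 9.70 in siTAZ2, 9.26 and 9.35 in siTAZ3, 9.42, 9.34 and 9.32 in siYAP1 and 9.32, 9.30 and 9.27 in siYAP2 cells, against 8.18, 8.35 and 8.30 in control cells. The siRNA arrays formed 1 band with siTAZ2 replicate 3 at its top, well clear of control. The mean of the 6 groups was 1.05 ± 0.0801 (SE) above control, 2.07-fold, and single groups were 0.92 to 1.17 above it.

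FCHO2 bends the plasma membrane at the start of clathrin-coated pits. Its siRNA arrays read 7.96 at the lowest, 8.26 at the median and 8.39 at the highest, against 7.51, 7.70 and 7.78 in control cells. The lowest siRNA array, siTAZ2_siYAP1 replicate 1, was 0.18 above the highest control array, and the mean difference was 0.57 ± 0.0697 (SE), 1.48-fold.

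TRAPPC6B is a subunit of the TRAPP complexes, which tether vesicles on their way to and through the Golgi. It read 10.10, 10.12 and 9.99 in siTAZ2_siYAP1, 10.29 and 10.32 in siTAZ3_siYAP2, 10.05, 10.01 and 10.13 in siTAZ2, 10.04 and 10.29 in siTAZ3, 10.38, 10.28 and 10.29 in siYAP1 and 10.31, 10.25 and 10.33 in siYAP2 cells, against 9.72, 9.87 and 9.72 in control cells. The 6 YAP arrays read 10.25 to 10.38 and the 3 siTAZ2 arrays 10.01 to 10.13. Its mean difference from control, 0.44 ± 0.0538 (SE) or 1.35-fold, was at the low end of the 10.

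DRAM1 is a lysosomal membrane protein that p53 induces and that promotes autophagy. It read 7.35, 7.57 and 7.50 in siTAZ2_siYAP1, 7.62 and 7.63 in siTAZ3_siYAP2, 7.64, 7.46 and 7.62 in siTAZ2, 7.33 and 7.36 in siTAZ3, 7.60, 7.76 and 7.75 in siYAP1 and 7.87, 7.91 and 8.03 in siYAP2 cells, against 6.71, 6.90 and 6.60 in control cells. The siYAP2 arrays were the highest and the siTAZ3 arrays among the lowest of the siRNA arrays. Group differences from control ran from 0.61 in siTAZ3 to 1.20 in siYAP2, the widest range among the 10, around a mean of 0.87 ± 0.0644 (SE), 1.83-fold.

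At the cell surface, DSC2 is a desmosomal cadherin that joins neighbouring epithelial cells. Its siRNA arrays read 10.08, 10.24 and 10.55 at the lowest, median and highest, against 9.26, 9.38 and 9.45 in control cells. The top value was again siTAZ2 replicate 3, and the mean difference was 0.88 ± 0.0591 (SE), 1.85-fold. RYK is a receptor for Wnt ligands whose kinase domain is thought to be inactive. It read 9.88, 9.89 and 9.81 in siTAZ2_siYAP1, 9.76 and 9.64 in siTAZ3_siYAP2, 9.87, 9.87 and 10.00 in siTAZ2, 9.79 and 9.93 in siTAZ3, 9.95, 9.97 and 10.05 in siYAP1 and 9.73, 9.74 and 9.75 in siYAP2 cells, against 9.34, 9.25 and 9.21 in control cells. Both groups with siYAP2 sat below both groups with siYAP1. The mean difference of RYK from control was 0.58 ± 0.0463 (SE), 1.49-fold.

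IDE, the insulin-degrading enzyme, is a zinc protease that also cuts other small peptides. Its siRNA arrays lay close together, between 10.66 and 10.90 with a median of 10.73, against 10.34, 10.21 and 10.28 in control cells. The 6 group means of IDE spanned 0.15, the least of the 10 genes, and their mean was 0.47 ± 0.0454 (SE) above control, 1.39-fold.

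CFDP1 is a craniofacial development protein related to a yeast subunit of the complex that puts the histone variant H2A.Z into chromatin. Its siRNA arrays read 8.12, 8.25 and 8.77 at the lowest, median and highest, the last being siTAZ2 replicate 3, against 7.01, 7.28 and 7.38 in control cells. Its mean difference was 1.07 ± 0.0989 (SE), 2.1-fold. ZNF678, a zinc finger protein of little-known function, was the dimmest of the 10, with 5.35, 5.83 and 6.21 at the lowest, median and highest siRNA array, against 4.72, 4.49 and 4.97 in control cells. Its control arrays lay around the array median of 4.83, so expression above background was not shown in those cells, and its mean difference of 1.06 ± 0.139 (SE), 2.08-fold, may understate the change. SMIM15 read 9.25, 9.59 and 9.72 at the lowest, median and highest siRNA array, against 8.76, 8.78 and 8.61 in control cells. Here siTAZ2 replicate 3 was the lowest siRNA array, and the mean difference was 0.85 ± 0.0472 (SE), 1.8-fold.

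**Figure D2:**
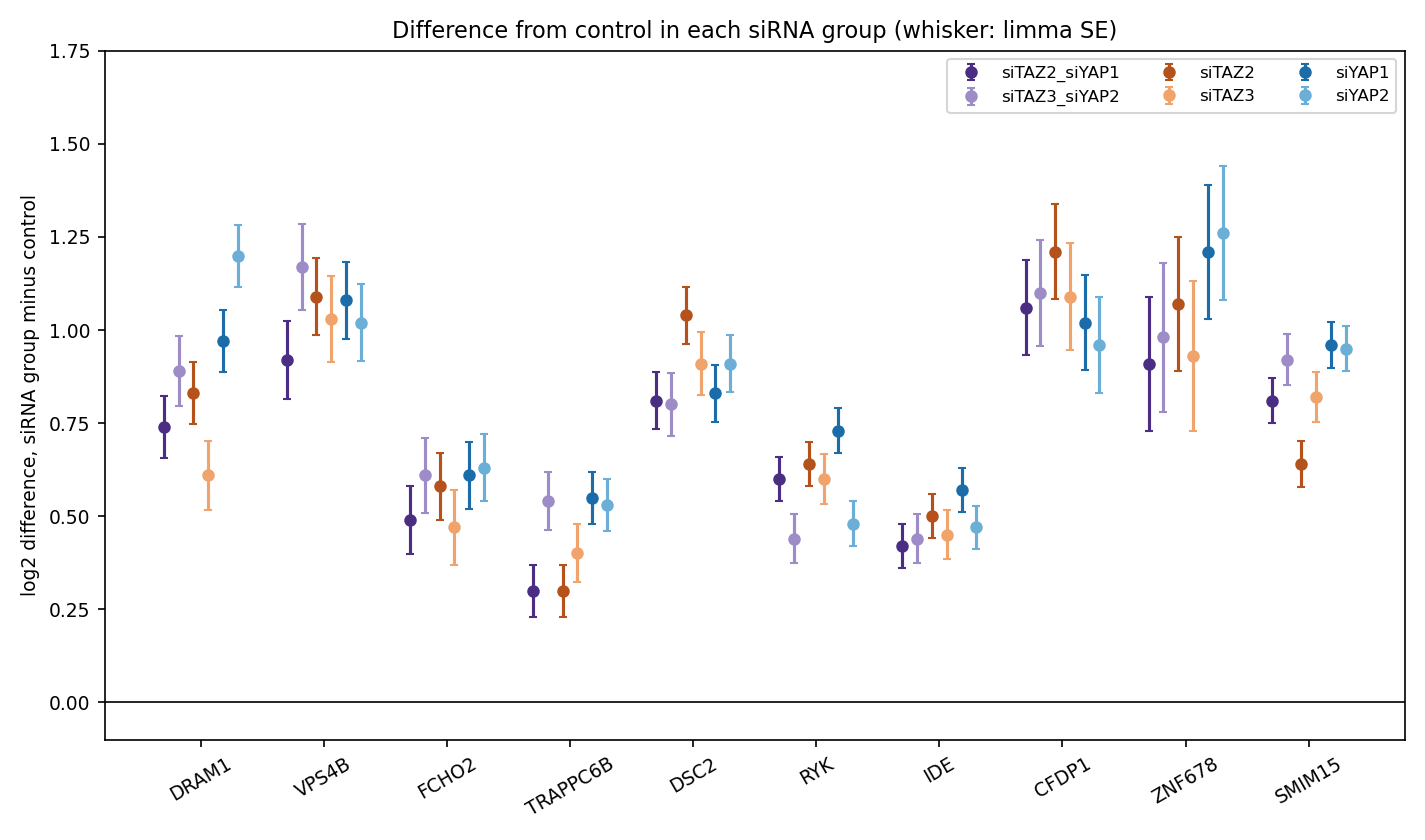
Log2 difference from control of each siRNA group for the 10 genes. Points are limma estimates and whiskers their SEs. The 6 groups cluster within a gene, most tightly for IDE (0.42 to 0.57) and most loosely for DRAM1 (0.61 to 1.20).

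Just inside the rule's threshold stood TRAPPC6B and ZNF678, whose smallest group differences were 0.30 and 0.91. Just outside, with all 6 differences above 0, were WASF3 with a mean difference of 0.53, PLPP1 with 0.51, PABPC4 with 0.31, CROT with 0.87 and BLTP3B with 0.51. Of 6 genes that met the rule and were not on the list, the 3 named ones with the largest mean difference were SGCB (0.84), a sarcoglycan of the muscle membrane complex, DCUN1D3 (0.61), which promotes cullin neddylation, and C4BPA (0.48), a liver-made complement inhibitor. The others were CDS2 (0.47), USP6NL (0.41) and 1 probe set with no symbol here (0.87). The list is thus a selection from the genes with this pattern.

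Combined knockdown left the 10 genes near the level of single knockdown. The difference between combined and TAZ knockdown ran from -0.17 for DSC2 to 0.14 for SMIM15, and that between combined and YAP knockdown from -0.29 for ZNF678 to 0.09 for CFDP1. VPS4B was 1.04 above control in combined, 1.06 in TAZ and 1.05 in YAP knockdown. CFDP1 was 1.08, 1.15 and 0.99 above control in the same order. Adding the TAZ and YAP differences would give 2.11 for VPS4B and 2.14 for CFDP1, and the measured combined difference minus that sum was -1.06 for both. For the other 8 genes this value ran from -1.29 (ZNF678) to -0.46 (TRAPPC6B). The rule fixes this near-equality, and the comparisons share control arrays.

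The established YAP and TAZ targets ANKRD1 and CCN1 differed from this pattern in direction and in the step to combined knockdown. ANKRD1, a muscle and stress protein used as a pathway readout, had a log2 difference from control of -3.86 in combined, -1.94 in TAZ and -0.33 in YAP knockdown (limma adjusted p = 7.24e-10, 7.21e-06 and 0.457). CCN1, a secreted matricellular protein, fell by 1.62, 0.70 and 0.71 in the same order (limma adjusted p = 1.08e-06, 0.00335 and 0.00175). The YAP average of ANKRD1 joined 0.01 in siYAP1 and -0.68 in siYAP2 cells (limma adjusted p = 0.994 and 0.0334). The difference between these 2 siRNAs passed for ANKRD1. Of 24 targets on the list used here, 1 rose and 8 fell in combined, 1 rose and 4 fell in TAZ and 0 rose and 2 fell in YAP knockdown, where 2.59%, 1.97% and 1.73% of all genes passed in either direction. The gene that rose was NT5E, by 0.90 in combined and 1.01 in TAZ knockdown. The list medians were -0.31, -0.15 and -0.06, against 0.00 for all genes.

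**Figure D3:**
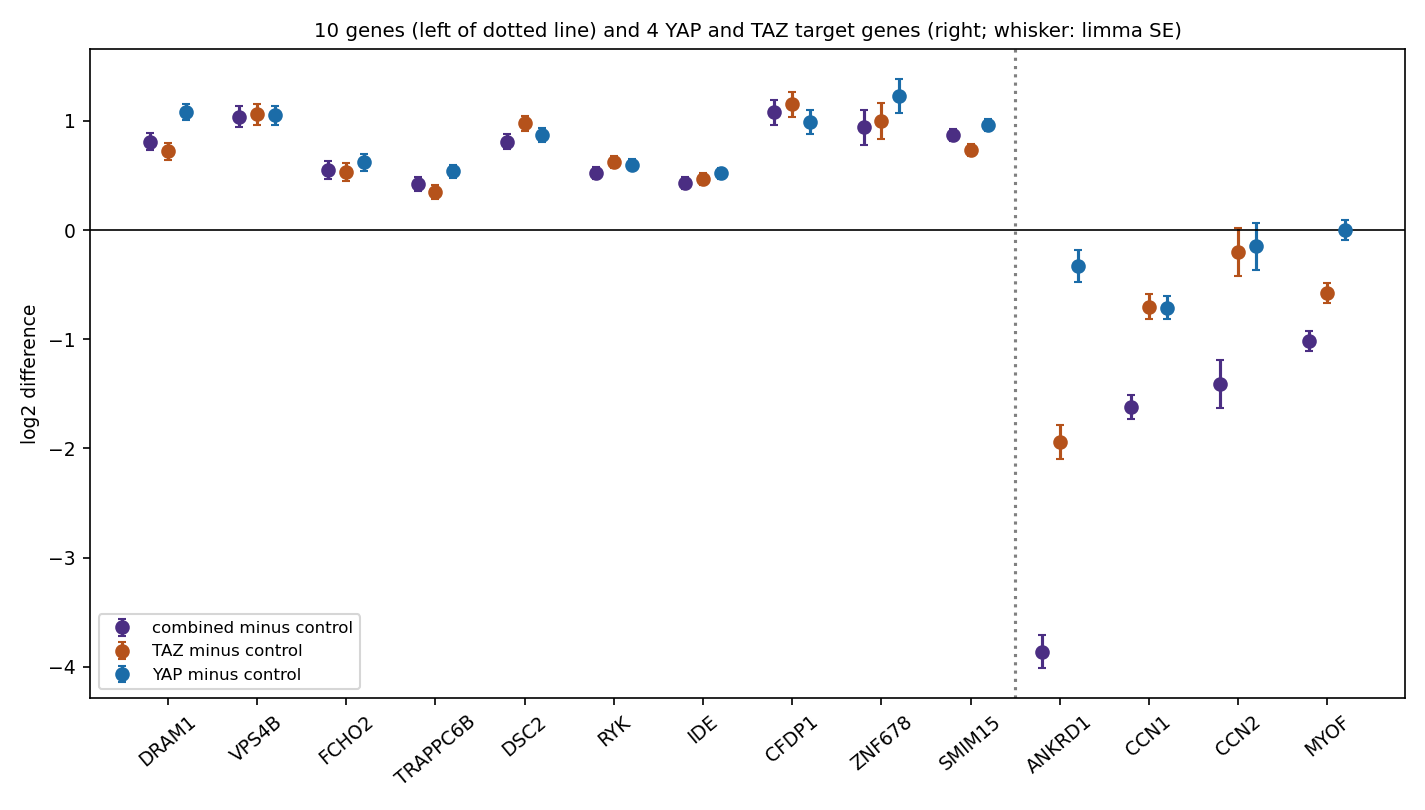
Log2 difference from control in combined, TAZ and YAP knockdown for the 10 genes (left of the dotted line) and 4 YAP and TAZ targets that fell in combined knockdown (right). NT5E, the target that rose, is not drawn. Whiskers are limma SEs. Combined knockdown stays near single knockdown for the 10 genes, while ANKRD1 reaches -3.86 and CCN1 -1.62.

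The rule did not compare siRNAs or pairs of the same target with each other, so the 10 genes were tested there, in 3 comparisons and 30 tests, with p-values adjusted over all 25579 genes of a comparison. The rule did require each of these groups to stand above control. RYK passed between siYAP1 and siYAP2, as did 4.83% of all genes in either direction and 2.92% in the higher one. None passed between siTAZ2 and siTAZ3 or between the pairs siTAZ2_siYAP1 and siTAZ3_siYAP2 in limma, where 0.813% and 2.48% of all genes passed. At an unadjusted p under 0.05, each of the 3 comparisons had 2 of the 10, where 14.1% of all genes reached it between YAP siRNAs, 8.73% between TAZ siRNAs and 10.6% between pairs. In counts this small, the 10 genes do not stand apart from the background.

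RYK was 0.25 ± 0.0599 (SE) higher in siYAP1 than in siYAP2 cells (95% confidence interval 0.12 to 0.38, limma adjusted p = 0.0224). The 3 siYAP1 arrays read 9.95 to 10.05 and the 3 siYAP2 arrays 9.73 to 9.75. The pair that holds siYAP1 was 0.16 above the pair that holds siYAP2 (interval 0.02 to 0.30, limma adjusted p = 0.362), a difference that did not pass. The first call did not hold without siYAP1 replicate 2 or 3 or without any 1 of the siYAP2 arrays, with limma adjusted p-values up to 0.104. Nor did it hold with replicate numbers as a block (0.0694) or with only the groups compared in the fit (0.0584).

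The difference between TAZ and YAP knockdown follows from the comparisons of each with combined knockdown, which the rule held near 0, so it is given without a test, and nothing is read from its size. In this comparison 5.59% of all genes passed in either direction. DRAM1 differed by -0.36 ± 0.0625 (SE), and its 5 TAZ arrays, 7.33 to 7.64, overlapped its 6 YAP arrays, 7.60 to 8.03, at the edge. SMIM15 differed by -0.23 ± 0.0458 (SE), and its TAZ arrays read 9.25 to 9.57 and its YAP arrays 9.60 to 9.72. TRAPPC6B differed by -0.19 ± 0.0522 (SE) and ZNF678 by -0.24 ± 0.135 (SE). The other 6 genes ran from -0.09 for FCHO2 to 0.16 for CFDP1. Deposit moves with siRNA target here, and its part was not tested.

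For genes that missed the threshold between siRNAs, the intervals give bounds. DRAM1 differed by -0.23 between siYAP1 and siYAP2 cells (interval -0.41 to -0.05, limma adjusted p = 0.171) and by 0.23 between siTAZ2 and siTAZ3 cells (interval 0.03 to 0.43, limma adjusted p = 0.455). IDE differed by 0.10 between siYAP1 and siYAP2 cells (interval -0.02 to 0.23) and by 0.05 between siTAZ2 and siTAZ3 cells (interval -0.09 to 0.19). Between the pairs the widest estimates were -0.24 for VPS4B (-0.49 to 0.00, limma adjusted p = 0.479) and -0.23 for TRAPPC6B (-0.40 to -0.07, limma adjusted p = 0.18). ZNF678, the dimmest gene, was bounded least tightly, at -0.43 to 0.34 between siYAP1 and siYAP2 cells. The median absolute difference of the 10 genes was 0.06 between YAP siRNAs, 0.12 between TAZ siRNAs and 0.12 between pairs, against 0.08 over all genes in each.

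**Figure D4:**
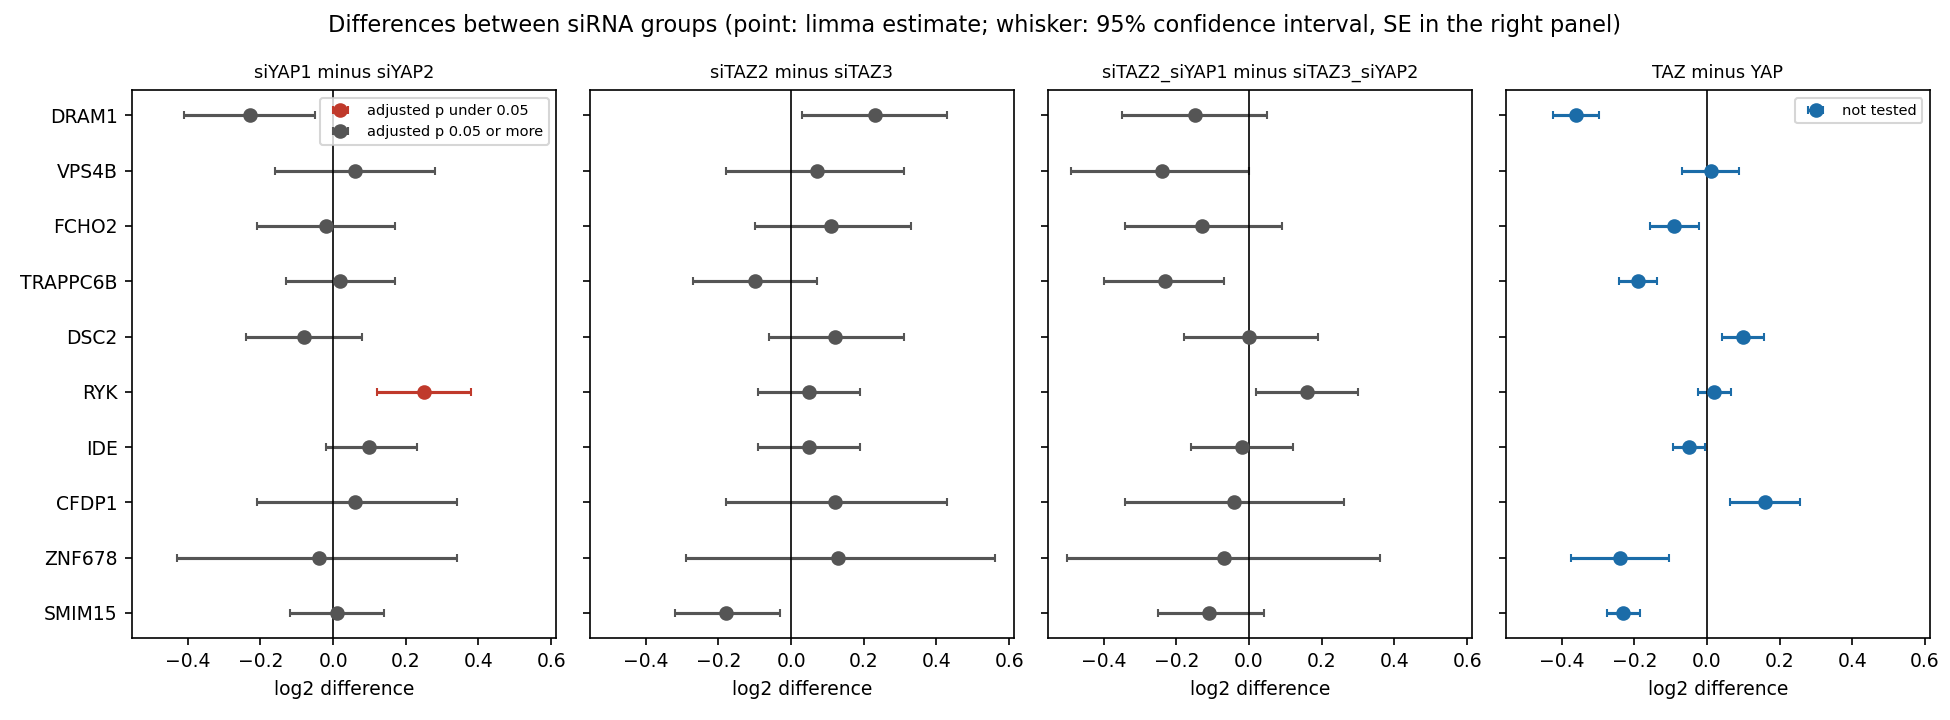
Log2 differences of the 10 genes in 4 comparisons between siRNA groups. Points are limma estimates, and whiskers are 95% confidence intervals in the 3 tested comparisons and SEs between TAZ and YAP (blue), which was not tested. RYK between YAP siRNAs (0.25, red) is the only point with an adjusted p under 0.05.

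Close relatives of the 10 genes were set against control as well. Of 11 related genes on the array, 0 passed in limma in combined, 0 in TAZ and 0 in YAP knockdown, where 2.59%, 1.97% and 1.73% of all genes passed, shares at which few or none of 11 would pass. At an unadjusted p under 0.05 there were 1, 1 and 0. The share of all genes at that level against control is not given, here or for the gene lists below. Nothing is therefore read from the unadjusted counts. VPS4A, the other VPS4 ATPase, had a log2 difference of -0.28 in TAZ knockdown (limma adjusted p = 0.105, and 0.0155 with array weights). DRAM2, the relative of DRAM1, differed by 0.14 in combined, 0.11 in TAZ and 0.11 in YAP knockdown (limma adjusted p = 0.465, 0.641 and 0.732). In these averages FCHO1 differed by 0.16 at most and NRDC, a protease related to IDE, by 0.11 at most. FCHO1 had -0.04 in siTAZ2 and 0.36 in siTAZ3 cells (limma adjusted p = 0.963 and 0.43). Between the pairs, where 2.48% of all genes passed, 1 of the 11 did. It was ROR1, a relative of RYK, at 0.49 (limma adjusted p = 0.037). The desmocollins DSC1 and DSC3 averaged 3.76 and 4.34 in control cells, TRAPPC6A 4.18 and ROR2 4.35. All lay below the array median and are not shown to be expressed.

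**Figure D5:**
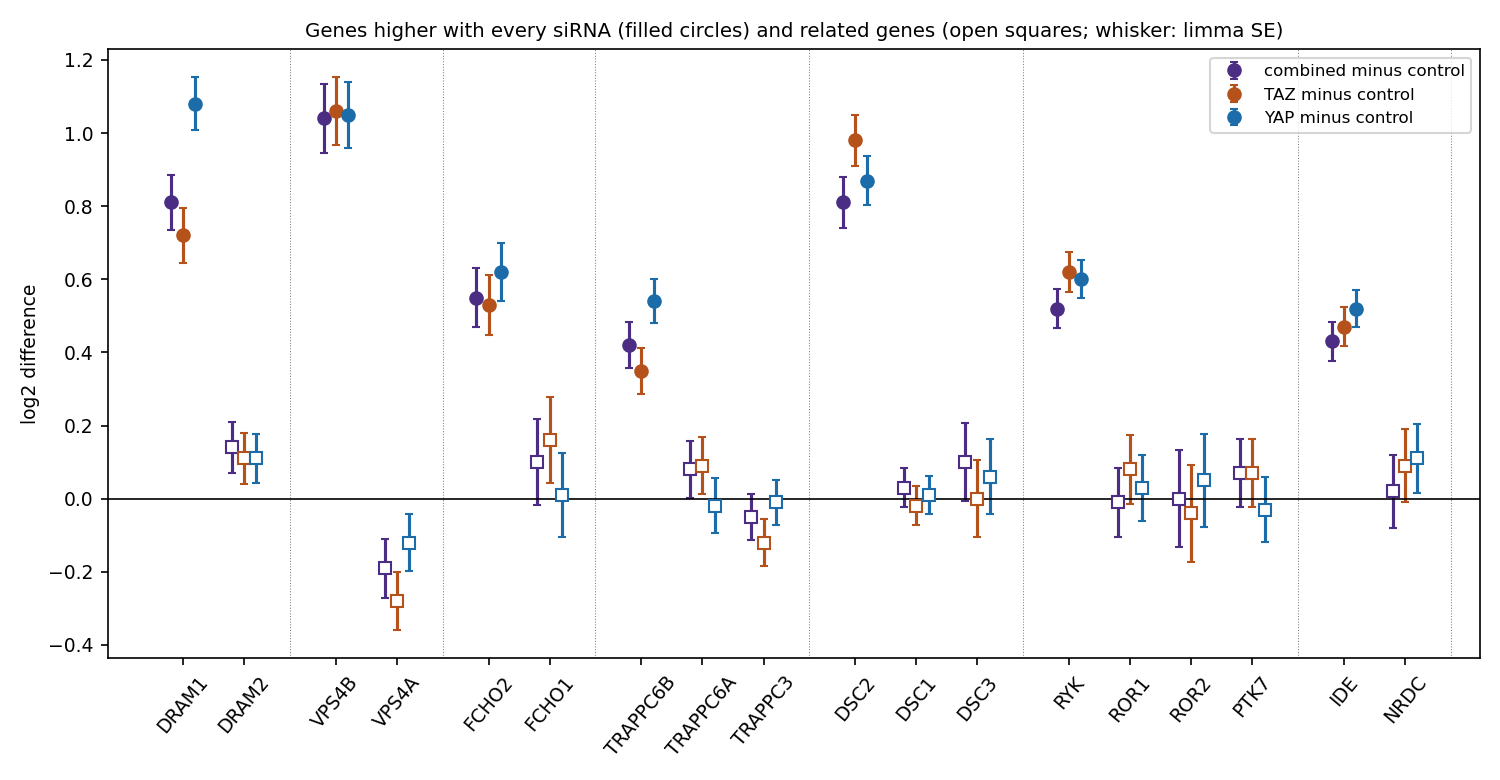
Log2 difference from control in combined, TAZ and YAP knockdown for 7 of the 10 genes (filled circles) and 11 related genes (open squares). Whiskers are limma SEs. The related genes lie between -0.28 (VPS4A) and 0.16 (FCHO1), while the 7 genes lie at 0.35 or more. The 7 were chosen for standing above control and the related genes were not, so nothing is read from this gap.

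Other genes of the pathways in which the 10 work were also set against control, where 2.59%, 1.97% and 1.73% of all genes passed in combined, TAZ and YAP knockdown. At such shares a count of 0 in a list of this size does not set the list apart. For unadjusted p-values the share of all genes is not given, so nothing is read from those counts. Of 14 other TRAPP subunits, 21 other genes of clathrin pit initiation, 12 M16 protease and insulin pathway genes and 11 genes of the H2A.Z exchange complex, 0 passed in limma in combined, TAZ or YAP knockdown. At an unadjusted p under 0.05, the TRAPP subunits had 2, 1 and 2, the clathrin genes 2, 2 and 3, the M16 and insulin genes 0, 2 and 0 and the H2A.Z genes 0, 0 and 2. Of 24 interferon and RNA-sensing genes, which cells can switch on when they meet foreign duplex RNA, 0 passed in limma in any of the 3, with 4, 5 and 1 at an unadjusted p under 0.05. Their medians were 0.10 in combined, 0.06 in TAZ and 0.01 in YAP knockdown. Control cells received an siRNA as well, so a response common to all groups could not show in these comparisons.

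Among 23 ESCRT genes other than VPS4B, 1 rose and 2 fell in combined, 0 passed in TAZ and 0 rose and 2 fell in YAP knockdown, with medians of -0.11, -0.09 and -0.06. At an unadjusted p under 0.05 there were 8, 5 and 4, counts that have no share of all genes beside them and are not judged. TSG101, which sorts ubiquitinated cargo, fell by 0.50 in YAP knockdown (limma adjusted p = 0.00125), and SPAST, which severs microtubules at ESCRT sites, fell by 1.04 (limma adjusted p = 0.00521). In combined knockdown STAM, an early ESCRT adaptor, fell by 0.33 (limma adjusted p = 0.00119). The rise of CHMP2B, a filament subunit that VPS4 acts on, by 0.44 (limma adjusted p = 0.0351) was lost in 9 of 19 fits that left out 1 array, and the fall of TSG101 by 0.36 (limma adjusted p = 0.0165) in 3. The YAP averages of SPAST and TSG101 came from 1 of the 2 siRNAs. SPAST had a log2 difference from control of 0.18 in siYAP1 and -2.25 in siYAP2 cells (limma adjusted p = 0.904 and 5.67e-06), and siYAP1 minus siYAP2 was 2.43 (limma adjusted p = 2e-06). TSG101 had 0.05 in siYAP1 and -1.06 in siYAP2 cells (limma adjusted p = 0.939 and 1.09e-06), a difference between them of 1.11 (limma adjusted p = 4.82e-07). Its pairs split too, with -0.13 in siTAZ2_siYAP1 and -0.59 in siTAZ3_siYAP2 cells (limma adjusted p = 0.707 and 0.00186).

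Of 21 autophagy and lysosome genes other than DRAM1, 1 rose and 2 fell in combined, 1 rose and 2 fell in TAZ and 2 rose and 2 fell in YAP knockdown. WIPI1, which acts in autophagosome formation, rose by 0.49 in combined (limma adjusted p = 0.000221), 0.27 in TAZ (0.0281, lost in 5 of 19 fits that left out 1 array) and 0.38 in YAP knockdown (0.00176). ATG16L1, part of the complex that attaches LC3 to membranes, fell by 0.75 in TAZ knockdown (limma adjusted p = 5.11e-05), and by 0.37 in combined knockdown (limma adjusted p = 0.00894, lost in 2 of 19 fits that left out 1 array). BECN1, a subunit of the kinase that starts autophagosomes, averaged -0.69 in YAP knockdown (limma adjusted p = 0.000439), with 0.20 in siYAP1 and -1.59 in siYAP2 cells (limma adjusted p = 0.595 and 1.14e-07). LAMP2, a lysosomal membrane protein, likewise had 0.08 in siYAP1 and -0.76 in siYAP2 cells (limma adjusted p = 0.876 and 1.28e-05). The difference between siYAP1 and siYAP2 was 1.80 for BECN1 and 0.84 for LAMP2 (limma adjusted p = 2.27e-08 and 3.53e-06), so these falls were seen with siYAP2 and not with siYAP1. ATG12 passed higher in YAP knockdown, a call that 3 of 19 fits lost, as 2 did for LAMP2. MAP1LC3B, an LC3 gene counted among the falls in combined and TAZ knockdown, averaged 4.49 in control cells, below the array median, and is not shown to be expressed. Of 19 p53 targets, 3 rose and 0 fell in combined, 2 rose and 1 fell in TAZ and 4 rose and 0 fell in YAP knockdown. TIGAR, which lowers glycolysis, rose by 0.66 in YAP knockdown (limma adjusted p = 0.00176), against a difference of -0.01 in TAZ knockdown (limma adjusted p = 0.992). TP53I3, an oxidoreductase, rose by 0.46 in combined, 0.33 in TAZ and 0.40 in YAP knockdown (limma adjusted p = 0.00248, 0.0312 and 0.00585, lost in 0, 4 and 1 of 19 fits that left out 1 array), with 0.14 in siYAP1 and 0.67 in siYAP2 cells. DDB2, a DNA damage sensor, passed higher in combined and YAP knockdown, and in TAZ knockdown SESN1, a stress-induced brake on mTORC1, passed higher and the secreted GDF15 lower, calls that 14, 15, 16 and 5 of those fits lost. SPATA18, which acts in mitochondrial clearance, rose by 0.38 in combined and 0.46 in YAP knockdown (limma adjusted p = 0.00637 and 0.00156), with 0.28 in siYAP1 and 0.64 in siYAP2 cells.

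Of 13 desmosome genes other than DSC2, 0 rose and 3 fell in combined, 0 rose and 1 fell in TAZ and 0 passed in YAP knockdown, with 1 at an unadjusted p under 0.05 in the last. DSG2, the desmoglein that pairs with DSC2 in simple epithelia, averaged -0.66 in combined and -0.47 in TAZ knockdown (limma adjusted p = 5.42e-05 and 0.002). It had -0.14 in siTAZ2_siYAP1 and -1.18 in siTAZ3_siYAP2 cells (limma adjusted p = 0.581 and 1.3e-06), and -0.18 in siTAZ2 and -0.77 in siTAZ3 cells (limma adjusted p = 0.356 and 0.000264). Both splits passed, at 1.04 between pairs and 0.59 between TAZ siRNAs (limma adjusted p = 6.2e-06 and 0.00441). DSG2 also had -0.41 in siYAP2 and 0.10 in siYAP1 cells (limma adjusted p = 0.00546 and 0.812). The fall was thus seen in the groups with siTAZ3 and with siYAP2 alone, although the YAP average did not pass. PKP2, a plakophilin that anchors desmosomal cadherins, fell by 0.32 in combined knockdown (limma adjusted p = 0.00669), and PKP4 by 0.25 (limma adjusted p = 0.00984, lost in 2 of 19 fits that left out 1 array). Of 23 Wnt receptor genes other than RYK, 0 rose, and 2 fell in combined, 1 in TAZ and 1 in YAP knockdown. FZD5, a Frizzled receptor, averaged -0.39 in YAP knockdown (limma adjusted p = 0.0107), with 0.13 in siYAP1 and -0.91 in siYAP2 cells (limma adjusted p = 0.75 and 7.64e-06) and 1.04 between them (limma adjusted p = 1.46e-06). In combined knockdown FZD5 had -0.10 in siTAZ2_siYAP1 and -0.58 in siTAZ3_siYAP2 cells (limma adjusted p = 0.825 and 0.00301), and 0.47 between the pairs (limma adjusted p = 0.0141). VANGL1, a planar polarity protein, fell by 0.53 in TAZ and 0.56 in combined knockdown (limma adjusted p = 0.0449 and 0.0272). Of 19 fits that left out 1 array, 3 lost the YAP call of FZD5 and 14 the TAZ call of VANGL1, and 6 lost the combined call of each.

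Of 15 genes of the RNA interference machinery, 1 rose and 2 fell in combined, 1 rose and 0 fell in TAZ and 1 rose and 1 fell in YAP knockdown. The gene that rose was XRN1, an exonuclease that clears cleaved mRNA, by 0.42 in combined, 0.50 in TAZ and 0.55 in YAP knockdown (limma adjusted p = 0.0369, 0.0153 and 0.00524). Of 19 fits that left out 1 array, 13 lost its call in combined (limma adjusted p up to 0.173), 3 in TAZ and 0 in YAP knockdown. AGO2, the slicer that siRNAs load into, fell by 0.57 in combined (limma adjusted p = 0.00357) and 0.83 in YAP knockdown (limma adjusted p = 0.000128), with a difference of -0.21 in TAZ knockdown (limma adjusted p = 0.438). DICER1, which cuts small RNA precursors, averaged -0.25 in combined knockdown (limma adjusted p = 0.025, lost in 7 of 19 fits that left out 1 array), with -0.05 in siTAZ2_siYAP1 and -0.45 in siTAZ3_siYAP2 cells. With single siRNAs it had -0.32 in siYAP2 and -0.28 in siTAZ3 cells (limma adjusted p = 0.0066 and 0.0724). In siYAP1 and siTAZ2 cells it had 0.04 and -0.04 (limma adjusted p = 0.922 and 0.881). Its fall was thus not confined to combined knockdown.

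XRN1 was also among the 5 named genes whose 7 group means followed the mean profile of the 10 most closely, at Pearson r = 0.968. The others were TNFRSF17 (0.98), ETNPPL (0.974), LINC02740 (0.969) and ZFYVE16 (0.967). Over the 6 siRNA groups alone, r was 0.877 for XRN1, 0.833 for TNFRSF17, 0.202 for ETNPPL, 0.785 for LINC02740 and 0.898 for ZFYVE16. The 10 genes, which form the profile, themselves ran from -0.345 for CFDP1 and 0.059 for RYK to 0.933 for ZNF678 there. Between these lay FCHO2 (0.899), DRAM1 (0.839), IDE (0.766), TRAPPC6B (0.721), VPS4B (0.507), SMIM15 (0.474) and DSC2 (0.116). The 10 genes thus followed their mean profile among the siRNA groups to unlike degrees. Likeness ignores size, and the group means of TNFRSF17 spanned only 3.55 in control to 3.61 in siYAP2 cells. TNFRSF17 and LINC02740, which averaged 3.52 in control cells, lay below the array median and are not shown to be expressed. XRN1 averaged 7.41 to 7.62 in the siRNA groups, against 7.05 in control cells, and ZFYVE16, an endosomal protein, 8.14 to 8.29, against 7.86 in control cells. The points share arrays, and these genes were picked for the pattern, so no test is given.

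Within groups the 10 genes moved together only loosely. Over 45 gene pairs, the correlation of deviations from the group means across 19 arrays had a median of 0.24 and ran from -0.55 to 0.77. Without siTAZ2 replicate 3 the median was 0.12, from -0.40 to 0.72. That array had read highest among the siRNA arrays for VPS4B, CFDP1 and DSC2 and lowest for SMIM15.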

How the data were processed

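Total RNA of 19 HepG2 samples was measured on Affymetrix arrays. The authors deposited log2 values, and the submitters' processing notes name RMA, which corrects background, normalizes quantiles and summarises probes. All 19 columns hold the same sorted values, so a shift of the whole transcriptome would have been removed. No RMA version or genome build was given in the sources used here. Arrays have no read depth, and their number limits the precision.

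Of 25582 probe sets, 24244 had a gene symbol in the platform annotation, updated through RefSeq for 24195, and 1338 had none here. Where 2 probe sets shared a symbol the brighter was kept, leaving 25579 genes. Groups came from sample titles. The main model, in limma 3.58.1 (R 4.3.3), had a mean for each group, used all 19 arrays and left no dim gene out. Benjamini-Hochberg adjustment ran over all genes of a comparison, with a threshold of 0.05. Each single knockdown averages 2 siRNAs, and combined knockdown averages 2 pairs. The fit was tested on simulated data.

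The 10 genes, the gene lists and the tests were chosen with earlier results of these data known. TAZ against YAP knockdown, planned as a test of the 10 genes, is described without one, since it follows from comparisons the rule used. Named are the 10 genes, YAP1 and WWTR1, written relatives, up to 4 genes with the largest change per list among those that passed, 5 genes most like the 10, the 3 unlisted genes with a symbol and the same pattern that had the largest change, and array neighbours that passed. NT5E, SPATA18, ATG12, LAMP2 and GDF15 were added after their values were seen. Alternatives were an intensity trend, leaving out the dimmest 30% of genes, quantile normalization once more, centring on array medians, fitting only the groups compared, array weights, a replicate block, and leaving out each array in turn.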

Additional observations from a re-analysis of the deposited data

How the results depend on the processing

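No difference that passed reversed under any alternative run. Some estimates that did not pass changed sign, such as that of ZNF678 between pairs, which ran from -0.25 to 0.12 when 1 array was left out. With only the groups compared in the fit, 0 of the 10 genes passed between siYAP1 and siYAP2, and the genes passing in all were 0 for siTAZ2 against siTAZ3, 822 for TAZ against YAP, 1145 for combined, 62 for TAZ and 860 for YAP knockdown against control. The main counts were 208, 1429, 662, 503 and 443. With array weights they were 1553, 2930, 1579, 1772 and 1303, and 2140 between YAP siRNAs and 1027 between pairs, against 1236 and 635. With replicate numbers as a block within each deposit, 0 of the 10 passed between siYAP1 and siYAP2, and the counts were 520 for TAZ against YAP, 295 for combined and 113 for TAZ against control. The numbers do not pair the arrays, since same-numbered arrays had a median correlation of deviations of 0.01 (22 pairs, -0.28 to 0.23). The cause of these moves was not tested.

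Leaving out 1 array at a time gave 812 to 2171 genes between YAP siRNAs, 20 to 1104 between TAZ siRNAs, 317 to 1503 between pairs, 843 to 2371 for TAZ against YAP, and 357 to 1578, 207 to 1199 and 240 to 1144 for combined, TAZ and YAP against control. The highest count was without siTAZ2 replicate 3 each time. Of the 10 genes, 0 to 1 passed between siYAP1 and siYAP2 and 0 in the other tested comparisons between siRNAs. Their median difference from control ran from 0.80 to 0.89. The number of arrays and, for ZNF678, signal near the array median limit the precision.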

Other observations

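The array genes next to the 10 on the chromosome were set against control as well. Of 20 neighbours, 0 rose and 1 fell in combined, 0 passed in TAZ and 1 rose and 0 fell in YAP knockdown, with limma medians of -0.01, -0.03 and 0.00. GNPTAB, which tags enzymes for the lysosome and lies beside DRAM1, rose by 0.31 in YAP knockdown (limma adjusted p = 0.0311). AMOTL2, a YAP-binding protein and pathway target beside RYK, fell by 0.63 in combined knockdown (limma adjusted p = 0.00172), where RYK was 0.52 above control.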
